A study of Arabidopsis thaliana with 24 samples.

Results

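Among 24 expression arrays of Arabidopsis thaliana rosette leaves, 4 stood apart from the arrays of their own groups by a high signal of stress and jasmonate genes: numbers 1 and 2 of Kas-1 dry and numbers 7 and 9 of Tsu-1 wet. They were chosen from these same data, and NAC019 (AT1G52890) and JAZ7 (AT2G34600) were given as the genes that mark them. They are set here against the other 8 arrays of the same groups, Kas-1 dry 3 to 6 and Tsu-1 wet 8, 10, 11 and 12. Kas-1 and Tsu-1 are natural accessions, grown 1 plant to a pot on porous ceramic medium under short days. Dry pots lost water stepwise over 5 days until about 50% remained, and wet pots were kept near 90%. The selected arrays were therefore of dried Kas-1 and of well-watered Tsu-1 plants, so neither accession nor soil was common to all 4. The remaining 12 arrays, Kas-1 wet 7 to 12 and Tsu-1 dry 1 to 6, were not among the arrays set apart or compared in the choice, but the marker genes were proposed from variation seen over all 24 arrays, so the remaining arrays are not wholly independent of it.

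The design text names 3 biological replicates per combination of accession and soil, whereas 6 arrays carry each label. The labels do not say which arrays share a plant or an RNA sample, so every spread and p-value below is between arrays and part of it may be technical. Values are log2 expression values as deposited, a difference of 1 being 2-fold. A difference is the mean of the 2 selected arrays minus the mean of the other 4, averaged over Kas-1 dry and Tsu-1 wet. Since the choice used these arrays, their differences are given as a description, without a test. The 12 arrays of Kas-1 wet and Tsu-1 dry were used for tests.

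Jasmonate is a lipid hormone made in the chloroplast and peroxisome when leaves are wounded or attacked. JAZ proteins repress its target genes, are destroyed when the hormone arrives, and are themselves encoded by target genes, so their transcripts follow the hormone. Abscisic acid accumulates in leaves that lose water and turns on genes of dehydration tolerance. The NAC transcription factors NAC019, NAC055 and RD26 are known targets of both hormones.

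NAC019 stood at 10.93 and 10.20 in Kas-1 dry 1 and 2, against 6.58, 6.13, 6.68 and 8.19 in Kas-1 dry 3 to 6. In Tsu-1 it stood at 11.71 and 10.43 in wet 7 and 9, against 6.35, 7.50, 8.75 and 8.94 in wet 8, 10, 11 and 12. Within each group the selected arrays lay above all others, with a difference of 3.43, or 10.8-fold, but the others were graded: Kas-1 dry 6 and Tsu-1 wet 11 and 12 lay between the selected arrays and the lowest. JAZ7, one of the JAZ repressors, stood at 9.43 and 9.60 in Kas-1 dry 1 and 2, against 7.81, 7.66, 7.80 and 7.51 in Kas-1 dry 3 to 6. In Tsu-1 wet it stood at 10.29 and 10.23 in 7 and 9, against 5.62, 7.10, 8.30 and 8.97 in 8, 10, 11 and 12. The selected arrays again lay above all others of their group, and the difference was 2.29 (4.90-fold).

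High marker levels also occurred outside the 4 arrays. Of the 12 arrays of Kas-1 wet and Tsu-1 dry, 1 reached the lowest selected value of NAC019 (10.20) and 5 reached that of JAZ7 (9.43). Tsu-1 dry as a group had NAC019 between 8.78 and 10.31 and JAZ7 between 8.71 and 10.29, while in Kas-1 wet NAC019 ranged from 6.05 to 9.64 and JAZ7 from 5.37 to 9.57. The 4 arrays are thus the high end of their own groups, and the level of each marker by itself was reached by other arrays. None of the 12 reached both lowest selected values. Tsu-1 dry 1 had NAC019 at 10.31 but JAZ7 at 8.83. Tsu-1 dry 6 came near, with NAC019 at 10.13 and JAZ7 at 10.29.

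**Figure D1:**
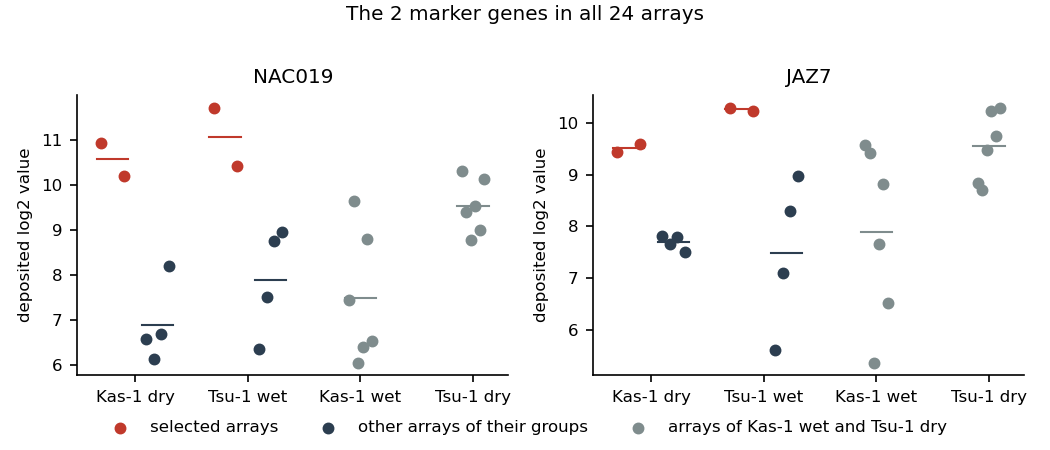
Deposited log2 values of NAC019 (left) and JAZ7 (right) in all 24 arrays, 1 point per array and a line at each mean. In Kas-1 dry and Tsu-1 wet the selected arrays (red) lie above the other arrays of their group (dark blue), and arrays of Tsu-1 dry (grey) reach up to 10.31 and 10.29.

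Across the 12308 loci whose mean log2 value over all arrays was above the 40th percentile (6.19), 282 were at least 2-fold higher in the selected arrays (2.29% of tested loci) and 250 at least 2-fold lower (2.03%). Without Tsu-1 wet 8 and 10, the arrays with the lowest markers of their group, these counts were 143 and 149. The median difference over all tested loci was 0.02 and the median absolute difference 0.24, so most loci differed little. Differences were positive at 6369 loci and negative at 5939. In both groups together, the selected arrays lay above all others of their group at 1779 loci (14.5%) and below all others at 1582 (12.9%). These shares describe the choice of arrays and support nothing by themselves. In whole leaves, fewer cells of a type and less RNA per cell cannot be told apart.

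Many of the same loci set the selected arrays apart in both groups. Kas-1 dry by itself had 303 loci at least 2-fold higher and 187 lower, Tsu-1 wet had 394 and 480, and 163 were higher and 121 lower in both. Across loci, which are not independent, the differences in the 2 groups correlated at 0.773 (Pearson) and 0.755 (Spearman), with equal signs at 77.8% of loci. Both pairs were chosen for the same marker signal, so some likeness follows from the choice. The arrays of the 2 groups share no control arrays, but they share the platform and the scaling.

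**Figure D2:**
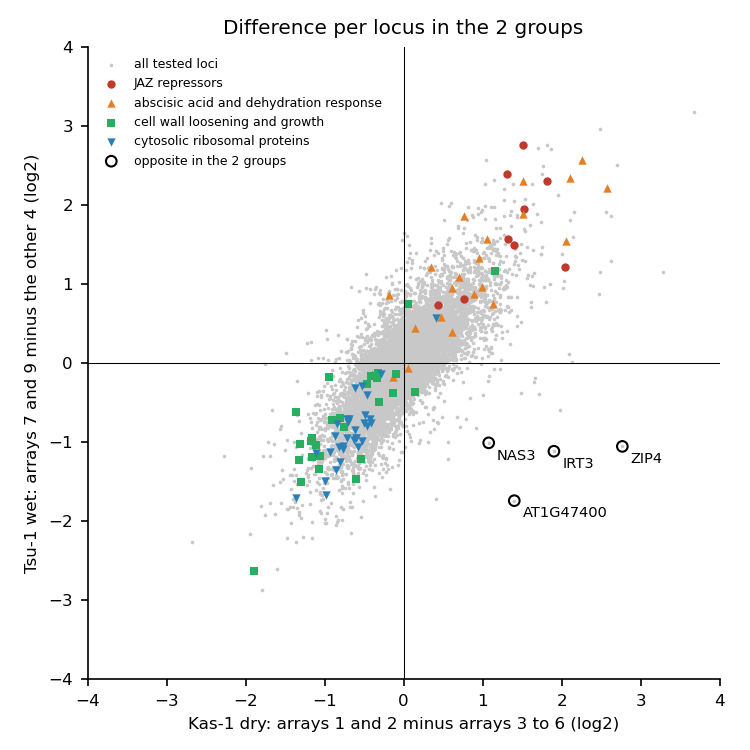
Difference between selected and other arrays for each tested locus (grey) in Kas-1 dry (horizontal axis) and Tsu-1 wet (vertical axis), in log2 units, with the members of 4 gene lists in colour. JAZ and dehydration genes lie towards the upper right, cell wall and ribosomal protein genes towards the lower left, and the 4 ringed loci differ by at least 2-fold in opposite directions.

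On the high side stood the JAZ repressor genes. All 9 tested members other than JAZ7 were above every other array of the group in both groups, 7 of them by at least 2-fold, with a median difference of 1.63. Of all tested loci 14.5% were above every other array and 2.29% at least 2-fold higher. JAZ1 stood at 11.35 and 11.28 in Kas-1 dry 1 and 2, against 9.30 to 9.66 in Kas-1 dry 3 to 6, and at 11.83 and 11.12 in Tsu-1 wet 7 and 9, against 8.06, 8.88, 9.66 and 10.07 in the other arrays. JAZ8, which is a more stable form of the repressor, stood at 9.21 and 9.75 against 7.73 to 8.11 in Kas-1 dry, and at 10.44 and 10.42 against 5.75, 7.61, 8.63 and 8.67 in Tsu-1 wet. Their differences were 2.06 (4.17-fold) and 2.14 (4.40-fold). JAZ10 differed more in Kas-1 dry (2.04) than in Tsu-1 wet (1.22), and JAZ5 the other way (1.31 and 2.39), although the difference between groups was not tested.

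Of 11 tested genes of jasmonate synthesis, 6 were at least 2-fold higher and none lower, against 2.29% and 2.03% of all tested loci. Their median difference was 1.14. AOC3, an allene oxide cyclase of the plastid, stood at 9.24 and 9.88 in Kas-1 dry 1 and 2, against 8.15, 7.84, 7.82 and 7.60 in 3 to 6. In Tsu-1 wet it stood at 11.15 and 10.33 in 7 and 9, against 6.24, 8.05 and 8.76 in 8, 10 and 12. Tsu-1 wet 11 was the highest of the others but over a log2 unit below Tsu-1 wet 9. The difference over both groups was 2.21 (4.64-fold), with no overlap. The lipoxygenase genes LOX3 and LOX4 differed by 1.65 and 1.49, OPCL1, a ligase gene of the peroxisomal steps, by 1.32, and JAR1, whose enzyme joins jasmonate to isoleucine, by 1.14. The allene oxide synthase gene AOS was 2.29-fold higher. LOX2, a further plastid lipoxygenase gene, differed by 0.07. Its selected arrays, at 10.49 to 11.08, lay within the span of the others, which was 9.66 to 11.19 for Kas-1 dry and 10.30 to 11.51 for Tsu-1 wet. The genes for the jasmonate breakdown enzymes CYP94C1 and CYP94B3 were 2.91-fold and 2.29-fold higher, and that of MYC2, the main activator of the response, differed by 1.01 in Kas-1 dry and 1.40 in Tsu-1 wet. Of 29 genes listed for jasmonate output and turnover, 20 were found in the table and 14 tested. Of these 14 tested genes, 4 were at least 2-fold higher and none lower, against the same shares of all loci, with a median of 0.75.

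The loci highest in the selected arrays by the naming rule included the genes of 4 stress NAC factors. RD26 stood at 10.03 and 10.02 in Kas-1 dry 1 and 2, against 7.30, 7.55, 7.35 and 7.63 in 3 to 6. In Tsu-1 wet it stood at 10.82 and 8.94 in 7 and 9, against 7.32, 6.92, 8.09 and 8.30 in the others. The ranges did not overlap within either group, but Tsu-1 wet 9 was much nearer to Tsu-1 wet 12 than to Tsu-1 wet 7. NAC055, listed as NAC3, stood at 8.23 and 8.91 against 6.10 to 6.51 in Kas-1 dry and at 9.98 and 8.28 against 5.82 to 7.10 in Tsu-1 wet (5.33-fold). ATAF1 was 4.13-fold higher, at 8.71 and 8.53 against 6.43 to 6.85 in Kas-1 dry and 9.28 and 7.87 against 5.86 to 7.08 in Tsu-1 wet. PUB19, a U-box ubiquitin ligase that dampens abscisic acid responses, was 4.74-fold higher, at 11.28 and 9.79 against 7.52 to 8.19 in Kas-1 dry and at 11.37 and 9.11 against 7.79 to 8.73 in Tsu-1 wet.

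Of 22 tested genes of the abscisic acid and dehydration response, 9 were at least 2-fold higher and none lower, against 2.29% and 2.03% of all tested loci. The median difference was 0.92. GolS2, a galactinol synthase of raffinose synthesis, stood at 8.09 and 7.40 in Kas-1 dry 1 and 2, against 5.83, 5.62, 5.40 and 5.71 in 3 to 6, and at 8.60 and 8.64 in Tsu-1 wet 7 and 9, against 5.71 to 6.69 in the others. That is 4.66-fold, with no overlap in either group. The lipid transfer protein genes LTP3 and LTP4 differed by 1.70 and 1.80, RD20, a calcium-binding protein gene of lipid droplets, by 1.91, and the dehydrin gene COR47 by 1.14. RD29A, listed as LTI78, differed by 1.31, but Kas-1 dry 2 (7.57) lay below Kas-1 dry 6 (7.81). COR15B differed by -0.27. Of the genes of abscisic acid synthesis and breakdown 0 of 7 differed by 2-fold, and NCED3, whose enzyme makes the hormone's precursor, differed by 0.32 in Kas-1 dry and 1.21 in Tsu-1 wet.

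Genes of the rapid response to wounding, touch and cold were all on the high side, 32 of 32 with positive differences, 9 at least 2-fold higher and a median of 0.76. Of all 12308 tested loci 6369 had positive differences and 2.29% were at least 2-fold higher. CML37, a calmodulin-like gene, differed by 1.81, at 9.57 and 9.52 against 7.85 to 8.36 in Kas-1 dry and 9.77 and 10.18 against 6.20, 7.45, 9.30 and 8.63 in Tsu-1 wet. The ethylene response factor genes ERF2 and RRTF1 differed by 1.61 and 1.45, and the WRKY factor genes WRKY33, WRKY18 and WRKY40 by 1.25, 1.21 and 1.16. In this list Tsu-1 wet 11, with a mean of 10.55, came close to Tsu-1 wet 7 and 9 (10.86 and 11.07), while Tsu-1 wet 8 was lowest at 9.26. Salicylic acid defence genes differed less. Of 15 tested, 2 were at least 2-fold higher, GRX480, a glutaredoxin gene (1.39), and CBP60G, a regulator of salicylic acid synthesis (1.15), whereas the late defence gene PR1 differed by -0.10 and the list had a median of 0.40. In Kas-1 dry its mean was 8.22 in array 1 and 9.48 in array 2, against 8.24 to 8.75 in 3 to 6, so array 2 was the highest of the group and array 1 the lowest. Among 15 genes of indole glucosinolates and camalexin 1 reached 2-fold (IGMT1, 1.22, with overlapping arrays) and the median was 0.54, and among 18 aliphatic glucosinolate genes none did and the median was 0.17.

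Heat shock and low oxygen genes were high as well, in few members. Of 9 tested heat shock genes 5 were at least 2-fold higher, against 2.29% of all tested loci, with a median of 1.25. HSP70 stood at 6.84 and 8.79 in Kas-1 dry 1 and 2, against 6.08, 5.77, 5.77 and 6.18, and at 9.71 and 9.39 in Tsu-1 wet 7 and 9, against 5.33, 5.63, 8.57 and 7.84. The selected arrays lay above the others but unevenly, Kas-1 dry 1 by less than a log2 unit and Kas-1 dry 2 by far more. MBF1C, a co-activator of heat tolerance, differed by 1.51, and the chaperone gene HSP101 by 0.47 in Kas-1 dry and 2.03 in Tsu-1 wet. Of 7 tested low oxygen genes 4 were at least 2-fold higher, against the same 2.29%, with a median of 1.34. LBD41, a transcription factor gene of the core low oxygen response, stood at 11.41 and 11.57 against 9.22, 8.13, 8.03 and 10.36 in Kas-1 dry, and at 9.14 and 9.96 against 6.95, 7.17, 7.75 and 8.67 in Tsu-1 wet. The haemoglobin gene HB1 differed by 1.82, the alcohol dehydrogenase gene ADH1 by 1.69 and the pyruvate decarboxylase gene PDC2 by 1.34. AT4G10270, a locus without a name in the gene table, differed by 3.28 in Kas-1 dry and 1.15 in Tsu-1 wet.

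The remaining loci that were highest by the naming rule were GPT2 and AT5G05600. AT5G05600 has no name in the gene table and was counted in none of the gene lists. Those lists were matched by gene name, so this absence does not place AT5G05600 outside their programmes. GPT2, a glucose 6-phosphate transporter of the plastid envelope, stood at 9.79 and 10.16 in Kas-1 dry 1 and 2, against 7.81, 6.96, 7.11 and 7.20, and at 9.53 and 7.95 in Tsu-1 wet 7 and 9, against 5.85, 6.28, 6.75 and 6.03 (6.10-fold). AT5G05600 stood at 10.16 and 9.67 against 7.74, 7.49, 7.32 and 7.15 in Kas-1 dry, and at 10.65 and 9.29 against 6.29, 7.01, 7.28 and 7.45 in Tsu-1 wet. It was 6.61-fold higher, and neither locus overlapped between selected and other arrays of a group. Senescence and darkness genes were not high as a list, with a median of 0.10 over 19 tested genes. Its 4 members past 2-fold were EXL4 (1.65), BCB, a blue copper protein gene (1.44), SAG21 (1.06) and PPH, a pheophytinase gene of chlorophyll breakdown (1.03). Among all tested loci 2.29% were at least 2-fold higher.

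On the low side stood genes of the growing cell wall. Of 27 tested cell wall and growth genes 11 were at least 2-fold lower and 1 was higher, against 2.03% and 2.29% of all tested loci. The median difference was -0.81. XTH8, one of the enzymes that cut and rejoin xyloglucan, stood at 7.37 and 6.88 in Kas-1 dry 1 and 2, against 8.62, 9.55, 9.43 and 8.48, and at 6.48 and 6.49 in Tsu-1 wet 7 and 9, against 9.49, 9.67, 8.25 and 9.08 (4.82-fold lower). XTH4 differed by -1.40, the arabinogalactan protein genes AGP4 and FLA9 by -1.27 and -1.21, and the expansin genes EXPA6, EXPA8 and EXPA11 by -1.07, -1.05 and -1.03. The exception was XTH24, which was 1.16 higher in each of the 2 groups. The list did not move as one: its cellulose synthase members CESA1 and CESA6 differed by -0.22 and -0.29.

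GER3, a germin-like protein of the cell wall, was the locus furthest down. It stood at 10.50 and 7.35 in Kas-1 dry 1 and 2, against 11.82, 11.68, 11.65 and 11.28 in 3 to 6, and at 10.40 and 10.14 in Tsu-1 wet 7 and 9, against 12.93, 13.06, 11.86 and 12.28. The difference of -2.47 (5.55-fold lower) rested in Kas-1 dry largely on array 2. SKU5, a protein of directional growth, stood at 9.23 and 8.54 against 9.98 to 10.86 in Kas-1 dry and at 8.70 and 8.88 against 10.26 to 11.14 in Tsu-1 wet. FLA2, another arabinogalactan protein gene, differed by -1.65, and delta-TIP, a water channel of the vacuole membrane, by -1.63. It was the 1 of 12 tested aquaporin genes past 2-fold, the list having a median of -0.21. Among all tested loci 2.03% were at least 2-fold lower.

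Growth hormone genes split. GA3OX1, whose enzyme makes active gibberellin, stood at 6.10 and 5.97 against 7.31, 8.08, 8.26 and 7.07 in Kas-1 dry and at 6.36 and 6.13 against 8.19, 7.82, 7.58 and 7.57 in Tsu-1 wet, a difference of -1.60. GA2OX6, whose enzyme inactivates gibberellin, stood at 8.23 and 9.15 against 7.28 to 7.70 in Kas-1 dry and at 9.42 and 9.61 against 6.48, 7.63, 8.26 and 8.86 in Tsu-1 wet, a difference of 1.44. Within each group the selected arrays were thus below all others for the synthesis gene and above all others for the inactivation gene. So placed were 12.9% of all tested loci on the low side and 14.5% on the high side. BR6OX2, an enzyme of brassinosteroid synthesis, differed by -1.48, although in Kas-1 dry its selected arrays (4.95 and 5.04) were under the lower quartile of all loci (5.21), where signal may not be told from background. GASA4, a gibberellin-induced gene, differed by -1.18, and the 17 tested genes of the 2 hormones had a median of -0.06. ARR7, which encodes a negative regulator of cytokinin signalling, was 4.31-fold lower, at 7.63 and 7.27 against 8.84 to 9.26 in Kas-1 dry and 6.31 and 6.59 against 8.67 to 9.60 in Tsu-1 wet. PAR1, a shade avoidance regulator, was 4.14-fold lower, and NIR1, the nitrite reductase gene, 3.57-fold lower.

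Genes for making ribosomes were low together. Of 32 tested cytosolic ribosomal protein genes 31 had negative differences, with a median of -0.78. Below every other array of the group in both groups lay 29, and 7 were at least 2-fold lower. Of all 12308 tested loci 5939 had negative differences, 12.9% lay below every other array and 2.03% were at least 2-fold lower. RPL16A stood at 8.36 and 7.42 in Kas-1 dry 1 and 2, against 9.04 to 9.38, and at 6.70 and 6.97 in Tsu-1 wet 7 and 9, against 8.83, 8.88, 8.41 and 8.05. RPL24A and RPS6 differed by -1.33 and -1.24, and RPL18AA, the member on the high side, by 0.49. FIB2, the fibrillarin gene of ribosomal RNA modification in the nucleolus, stood at 8.94 and 8.24 against 9.87 to 10.26 in Kas-1 dry and at 6.93 and 7.39 against 8.55 to 9.40 in Tsu-1 wet (3.16-fold lower). HDA3, a nucleolar histone deacetylase of the plant-specific HD2 type, was 3.51-fold lower. AT5G65360, a histone H3.1 gene in the gene table, was 3.31-fold lower. The 25 tested proteasome subunit genes, a list of other large-complex housekeeping genes, had a median of -0.04 and none past 2-fold.

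Photosynthesis genes differed little. None of 33 light harvesting and photosystem genes and none of 23 Calvin cycle and photorespiration genes reached 2-fold. Of the photosystem genes 32 of 33 had negative differences with a median of -0.27, and of the Calvin cycle genes 13 of 23 with a median of -0.13. Of all 12308 tested loci 5939 had negative differences. The list mean of photosystem genes was 12.84 and 12.71 in Kas-1 dry 1 and 2, against 12.95 to 12.97 in 3 to 6, and 12.59 and 12.45 in Tsu-1 wet 7 and 9, against 12.82 to 13.08. The selected arrays were the lowest of each group, by well under a log2 unit. Among 27 genes of reactive oxygen scavenging 2 were past 2-fold, both lower: FSD1, an iron superoxide dismutase of the chloroplast (-1.47), and TL29, a thylakoid lumen relative of ascorbate peroxidases (-1.02). Among all tested loci 2.03% were at least 2-fold lower. FSD1 in Tsu-1 wet 7 and 9 (4.21 and 4.78) was under the lower quartile of all loci, so its difference is one of array signal. Cell division and DNA replication genes had a median of -0.40 over 10 tested, clock genes 0.26 over 13, auxin response genes -0.06 over 20 and flavonoid genes -0.09 over 11. Of these 4 lists 1 gene passed 2-fold, the auxin conjugation gene WES1 (1.13).

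Markers of other tissues were set side by side within each group, over every member in the table. RCA, the Rubisco activase of green leaf cells, averaged 13.49 in the selected arrays and 13.57 in the others. In Kas-1 dry the list mean of the 9 guard cell markers was 6.64 to 6.68 in the selected arrays, just above the 6.43 to 6.63 of the others, while that of the 7 trichome markers (5.54 to 5.74, against 5.78 to 5.93) and of the 9 root markers (5.42 to 5.47, against 5.49 to 5.59) lay below. The 14 vascular, 10 flower and 10 shoot apex and young leaf markers overlapped there. In Tsu-1 wet the selected arrays lay above the others for trichome markers (5.74 to 5.75, against 5.57 to 5.72), root markers (5.56 to 5.57, against 5.50 to 5.53), shoot apex and young leaf markers (5.52 to 5.60, against 5.40 to 5.51) and flower markers (5.18 to 5.32, against 5.07 to 5.12), of which 7 of 10 were under the lower quartile of all loci. Guard cell (6.65 to 6.85, against 6.54 to 6.86) and vascular markers (8.20 to 8.33, against 8.14 to 8.23) overlapped in Tsu-1 wet. Over the 4 guard cell and 12 vascular markers above the intensity filter alone they did not: Tsu-1 wet 7 and 9 had means of 8.16 and 8.11 for guard cells, against 7.84 to 8.09, and 8.92 and 8.795 for vascular tissue, against 8.65 to 8.793. Over all members in the table no marker list lay on the same side of the others in both groups, and where the arrays did not overlap the nearest selected and other arrays were under 0.1 log2 units apart. The part of tissue make-up in the differences was not tested.

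**Figure D3:**
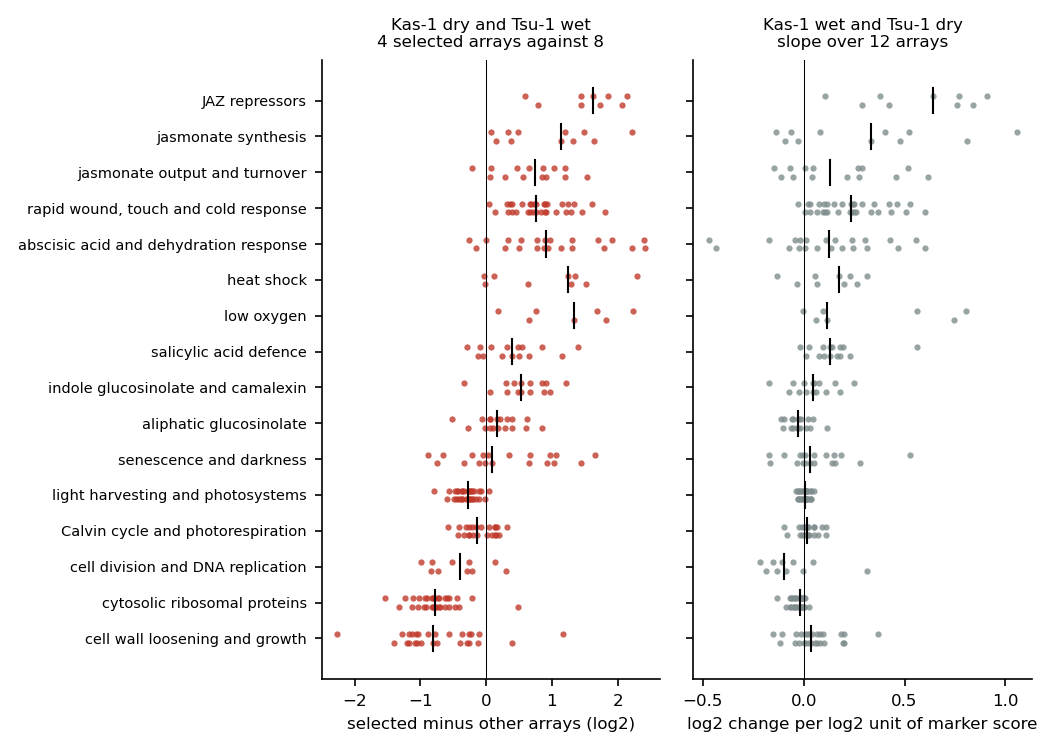
Each point is a tested gene of 1 list and each black line the list's median. On the left is the difference between the 4 selected and 8 other arrays in log2 units, where medians run from 1.63 for JAZ repressors to -0.81 for cell wall genes; on the right is the slope on the marker score over the 12 arrays of Kas-1 wet and Tsu-1 dry, where the medians of ribosomal protein and cell wall genes are -0.02 and 0.03.

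The 2 groups differed by at least 2-fold in opposite directions at 4 loci. ZIP4, a zinc transporter gene, stood at 10.72 and 10.22 in Kas-1 dry 1 and 2, against 8.49, 7.70, 7.39 and 7.21 in 3 to 6, and at 8.06 and 8.37 in Tsu-1 wet 7 and 9, against 8.08, 8.93, 9.25 and 10.82. The metal transporter gene IRT3 differed by 1.90 in Kas-1 dry and -1.12 in Tsu-1 wet, NAS3, a nicotianamine synthase gene, by 1.08 and -1.01, and AT1G47400 by 1.40 and -1.74. In Kas-1 dry both selected arrays were above the rest for all 4 loci. In Tsu-1 wet they were below the rest for IRT3, NAS3 and AT1G47400, for NAS3 only just (6.775 in wet 9 against 6.779 in wet 10), and overlapped Tsu-1 wet 8 for ZIP4. For AT1G47400 the lowest array, Kas-1 dry 6 (4.78), was under the lower quartile of all loci. These 4 were named after their values were seen. CSD2, the copper and zinc superoxide dismutase of the chloroplast, differed by 0.01, with Tsu-1 wet 11 and 12 at 11.36 and 10.43 and all 10 other arrays of the 2 groups between 11.92 and 12.68.

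In dehydration genes the selected arrays of watered Tsu-1 lay above the dried arrays of the same accession. The list mean of abscisic acid and dehydration genes was 9.80 and 9.54 in Tsu-1 wet 7 and 9, against 8.38 to 8.69 in the other Tsu-1 wet arrays, and 8.83 to 9.21 in Tsu-1 dry. The watered Tsu-1 wet 7 and 9 thus had the highest values of any Tsu-1 array. In Kas-1 the list mean was 9.31 and 9.02 in dry 1 and 2, against 8.12 to 8.45 in dry 3 to 6, and 8.28 to 8.66 in Kas-1 wet. The other 4 dried Kas-1 arrays lay within or under the range of watered ones. Low oxygen genes had list means of 9.35 and 9.77 in Kas-1 dry 1 and 2, against 7.77 to 8.59 in dry 3 to 6, and 8.57 and 8.70 in Tsu-1 wet 7 and 9, against 7.43 to 7.87 in the others. Kas-1 wet 8, which had the highest NAC019 value of its group, was at 9.54, and the other 5 Kas-1 wet arrays at 7.65 to 8.36.

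**Figure D4:**
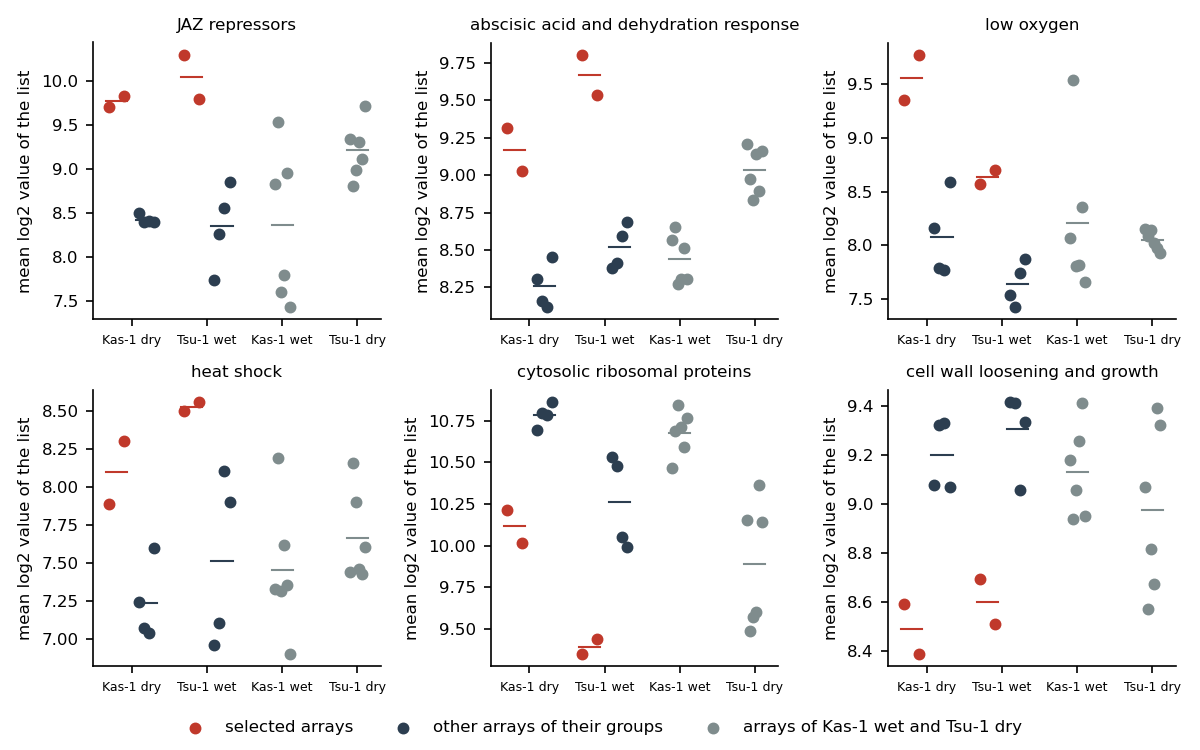
Mean log2 value of 6 gene lists in each of the 24 arrays, with a line at each mean. Selected arrays (red) are at the high end for JAZ, dehydration, low oxygen and heat shock genes and at the low end for ribosomal protein and cell wall genes; Tsu-1 dry arrays (grey, right) reach down to 9.49 for ribosomal proteins and 8.57 for cell wall genes.

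The 12 arrays of Kas-1 wet and Tsu-1 dry were used to ask which of these programmes follow the 2 markers where the arrays had not been chosen. Each array had a marker score, the mean over NAC019 and JAZ7 of its deviation from the group mean, and each of 12306 loci other than the markers was fitted with a slope on that score and a mean for each group in limma. The slope is the log2 change per log2 unit of score. In this fit 155 loci rose with the score (1.26% of those tested) and 2 fell (0.0163%), at an adjusted p under 0.05. At an unadjusted p under 0.05 there were 804 with a positive and 597 with a negative slope.

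Loci of the high side of the selected arrays were among those that rose with the score. Since only 2 of all loci fell, a count of 0 falling among the low side says little. Of the 280 loci at least 2-fold higher in the selected arrays, markers aside, 81 rose with the score (28.9%, against 1.26% of all loci) and 228 had a positive slope (81.4%, against 40.6% of all). Of the 250 loci at least 2-fold lower, 0 fell (against 0.0163% of all loci) and 0 rose, and 166 had a negative slope (66.4%, against 59.4% of all). Of the 155 rising loci, 153 had a positive difference in the selected arrays and 52.3% were at least 2-fold higher. Across loci, as a description, difference and slope correlated at 0.377 (Pearson) and 0.211 (Spearman).

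JAZ genes rose in 8 of 9 cases, jasmonate synthesis genes in 5 of 11, jasmonate output genes in 4 of 14 and rapid wound, touch and cold genes in 10 of 32, and none fell. Among all loci 1.26% rose and 0.0163% fell. The score itself contains a JAZ gene, JAZ7, so the counts of JAZ and jasmonate genes are not independent of it. With the score from NAC019 alone 42 loci rose in all, against 155. AOC3 rose by 1.06 per unit of score (SE 0.12, adjusted p = 0.00167). Its level was 8.25, 10.19, 6.30, 6.64, 9.36 and 6.24 in Kas-1 wet 7 to 12 and 9.22, 8.55, 8.78, 8.43, 8.47 and 9.60 in Tsu-1 dry 1 to 6. The 3 Kas-1 wet arrays with positive scores, 7, 8 and 11, were its 3 highest in that group, while Tsu-1 dry spanned little more than a log2 unit. JAZ1 rose by 0.91 (SE 0.11, adjusted p = 0.00288), JAZ8 by 0.84 (SE 0.13, adjusted p = 0.00747), LOX3 by 0.81 (SE 0.12, adjusted p = 0.00685) and JAZ5 by 0.76 (SE 0.08, adjusted p = 0.00149). AT5G05600 had the steepest slope of the named loci, 1.17 (SE 0.18, adjusted p = 0.00798), and the next in the rule were GSTU5, a glutathione transferase gene (0.73), AT1G61890 (0.72) and AT2G32150 (0.70).

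Of the dehydration genes 4 of 22 rose, against 1.26% of all loci: RD26 (0.60, adjusted p = 0.0247), ERD7 (0.47), LEA14 (0.43) and the dehydrin gene ERD10 (0.31). NCED3 rose by 0.46 (adjusted p = 0.00682). GolS2, LTP3 and LTP4, each more than 3-fold higher in the selected arrays, had slopes of -0.17, -0.43 and -0.47 that did not pass (adjusted p = 0.777, 0.217 and 0.385). Within Kas-1 wet GolS2 was highest in array 9 (7.62), the array with the lowest marker score. Within Tsu-1 dry it was highest in array 2 (7.82), whose score was the lowest of that group (-0.49). Among low oxygen genes LBD41 rose (0.75, SE 0.13, adjusted p = 0.0149), but ADH1 (0.56) and HB1 (0.80) did not pass. No heat shock gene of 9 passed, and HSP70 had a slope of 0.18 (SE 0.33, adjusted p = 0.923), with high values in Kas-1 wet 8 (8.95) and in Tsu-1 dry 2 and 3 (8.93 and 8.11), of which the last pair had scores below 0.

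Named genes that were low in the selected arrays had slopes that did not pass the test. GER3 had a slope of -0.09 (SE 0.33, adjusted p = 0.961) and XTH8 of 0.06 (SE 0.23, adjusted p = 0.966). None of the 32 ribosomal protein genes and none of the 27 cell wall genes fell, as against 0.0163% of all loci, with median slopes of -0.02 and 0.03. Slopes were negative at 27 of the 32 ribosomal protein genes, against 59.4% of all loci, and at 7 of the 27 cell wall genes. The ribosomal median was -0.06 in Kas-1 wet alone and 0.30 in Tsu-1 dry alone, and the cell wall median 0.02 and 0.29. TCH4, a touch-induced xyloglucan enzyme gene, rose by 0.37 (adjusted p = 0.0465). The ribosomal list mean was 9.49, 9.57 and 9.60 in Tsu-1 dry 2, 3 and 4, against 10.14 to 10.37 in Tsu-1 dry 1, 5 and 6, while their marker scores were -0.49, -0.41 and 0.35, against 0.04, -0.17 and 0.67. The same 3 arrays had the lowest cell wall means of Tsu-1 dry (8.57, 8.82 and 8.67, against 9.07, 9.39 and 9.32). The 2 falling loci were AT3G53730 (-0.22, SE 0.04, adjusted p = 0.0299) and AT1G53460 (-0.14, SE 0.03, adjusted p = 0.0427), whose differences in the selected arrays were -0.39 and -0.25.

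**Figure D5:**
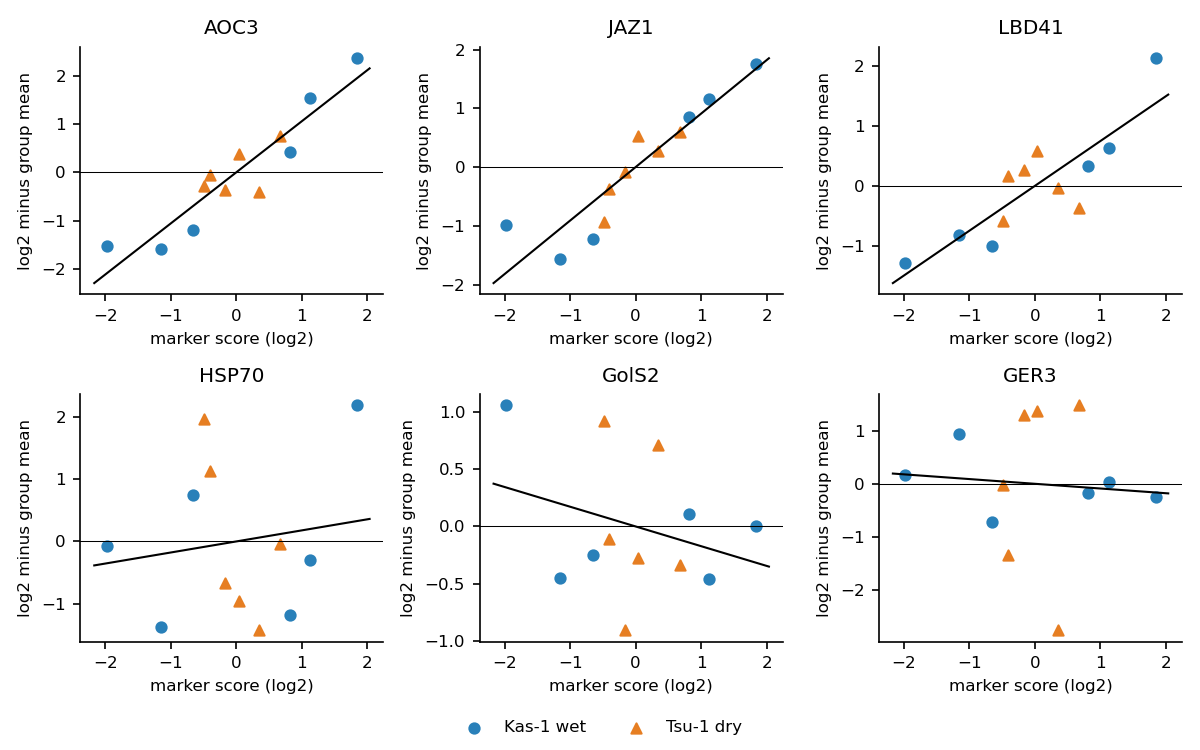
Log2 value minus the group mean against the marker score in the 12 arrays of Kas-1 wet (circles) and Tsu-1 dry (triangles), with the fitted slope as a line. AOC3, JAZ1 and LBD41 rise along the score, whereas HSP70, GolS2 and GER3, also named for the selected arrays, do not pass the test (slopes 0.18, -0.17 and -0.09).

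The count of rising loci leaned on Kas-1 wet. The score had an SD of 1.48 among the 6 Kas-1 wet arrays and 0.448 among the 6 Tsu-1 dry arrays. Kas-1 wet by itself gave 76 rising and 11 falling loci, and Tsu-1 dry by itself 0 and 0. A test of whether the slopes differed between these groups called 0 loci in limma (521 at an unadjusted p under 0.05, smallest adjusted p = 0.877). Without Kas-1 wet 8, the array with the highest score, 31 loci rose. Without Kas-1 wet 12, 9 or 10 there were 57, 77 and 93. With the score from NAC019 alone 42 loci rose, and with JAZ7 alone 117. JAZ1 kept its call in 21 of 22 alternative fits, AOC3, JAZ5, JAZ8, LOX3 and AT1G61890 in 20 each, AT2G32150 in 21, AT5G05600 in 19, LBD41 in 17 and GSTU5 in 15. The falling AT3G53730 kept its call in 13 of them and AT1G53460 in 7. LBD41 had a slope of -0.06 in Tsu-1 dry by itself.

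The 2 markers themselves were not shown to vary together in those 12 arrays. Their deviations from the group means correlated at 0.668 by Pearson's r (permutation p = 0.0839) and 0.685 by Spearman's rho (permutation p = 0.0655), both 0.0839 after adjustment over the pair of coefficients, with 100000 permutations within groups. Without Kas-1 wet 8 and 11, the arrays farthest from the median of NAC019, Pearson's r was 0.493 (permutation p = 0.169). Within Kas-1 wet r was 0.783 (exact permutation p = 0.0778, n = 6) and within Tsu-1 dry -0.0247 (exact permutation p = 0.965, n = 6).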

How the data were processed

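The values are log2 expression per locus and array, from a table the authors deposited for 20514 loci. Biotin-labelled cRNA from total RNA was hybridised, per the labels' protocols. MAS5 is named in the submitters' processing notes without version or role, so background correction, probe summary and normalisation are not given in the sources used here. Array medians of 6.77 to 6.87 show scaling between arrays. Loci were named through the RefSeq table for TAIR10.1 (20290 matched, 224 not). No sequences or coordinates are printed. Values of 147 loci equal those of another locus, as for GOX1 and GOX2 among the Calvin genes.

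Members and gene lists were chosen with earlier results of these data known. Symbol corrections in the lists and the choice of ribosomal and proteasome loci by name were made after differences had been seen. The 4 against 8 arrays were described without a test. Slopes were fitted in R 4.3.3 with limma 3.58.1 (lmFit, eBayes with an intensity trend), two-sided, with Benjamini-Hochberg adjustment over all loci tested, called under 0.05. The procedure was tested on simulated data. Named loci were the 15 largest differences in each direction without overlap in either group, with the higher of the means of selected and other arrays above the median intensity (7.95), so that some passed through 1 set of arrays alone, the 10 largest called slopes in each direction, list members and the markers. Alternatives were other filters, centring, quantile normalisation, groups, markers and arrays left out. The number of arrays limits precision.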

Additional observations from a re-analysis of the deposited data

Results flagged for a closer look

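Of 256 groups of 6 arrays examined, 10 (3.91%) held an array whose gap to its nearest neighbour, divided by the group's range, was above 0.625, and chance flags about 1 in 20 groups. Among the loci these were HSP70 in Kas-1 dry 2 (8.79, next 6.84), GER3 in the same array (7.35, next 10.50), PUB19 in Tsu-1 wet 7 (11.37, next 9.11), GolS2 in Kas-1 wet 9 (7.62, next 6.67) and AT4G38860 in Kas-1 wet 8 (7.22, next 7.91). The selected arrays Kas-1 dry 2 and Tsu-1 wet 7 thus carry part of the difference of HSP70, GER3 and PUB19 by themselves. Among list means, here over the members above the intensity filter, the values that stood out were the trichome markers in Kas-1 dry 2 (6.79, next 7.16), aliphatic glucosinolate genes in Kas-1 wet 8 (8.51, next 8.74), senescence genes in Tsu-1 dry 4 (9.72, next 9.34), guard cell markers in the same array (7.87, next 7.95) and auxin response genes in Tsu-1 dry 5 (8.17, next 8.33).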

How the results depend on the processing

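Median centring, quantile normalisation, other intensity filters, medians in place of means and averaging of the near-identical Kas-1 dry 4 and 5 kept both 2-fold counts within 1.5 times of 282 higher and 250 lower. Without single arrays the higher count ran from 224 to 368 and the lower from 177 to 365. Without Tsu-1 wet 8 and 10, the arrays with the lowest markers of their group, the counts were 143 and 149. Tsu-1 wet alone gave 480 lower. Over all settings, 560 of 570 values of named loci and 493 of 513 list medians moved by less than the spread within groups. The aliphatic glucosinolate median was -0.08 in Kas-1 dry alone and 0.43 in Tsu-1 wet alone, and the auxin median -0.21 and 0.14.

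The 155 rising loci were 42 with NAC019 alone as the score, 76 in Kas-1 wet alone and 0 in Tsu-1 dry alone. Without single arrays they ran from 31 to 143. The 2 falling loci were 7 with no filter, 5 with the 60th percentile filter, 1 with NAC019 alone, 4 with JAZ7 alone, 11 in Kas-1 wet alone and 0 in Tsu-1 dry alone. Without single arrays they ran from 0 (Kas-1 wet 8, 9 or 12) to 10 (Tsu-1 dry 4). Falling counts were also 1 without Kas-1 wet 7 and 4 without Tsu-1 dry 3 or 6. In Tsu-1 dry alone the slopes of LBD41 (-0.0576) and AT3G53730 (0.0357) and the correlation of the markers (-0.0247) turned sign. That correlation ran from 0.556 to 0.755 without single arrays. Among the 12 named loci with called slopes no other slope turned sign, and 49 values kept their sign but lost their call. Slopes that had not passed also turned, such as HSP70 (-1.85) and GER3 (0.44) in Tsu-1 dry alone and XTH8 (-0.06) in Kas-1 wet alone. The causes were not tested.

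No paired analysis was possible because the groups set together share no replicate numbers. Kas-1 dry 4 and 5 correlated at 0.995, nearer than any other pair of their group. The scaling steps behind the deposited values are unknown.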

Other observations

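The loci named below were picked from those past 2-fold after their values were seen, so they do not speak for the families they belong to. Among loci lower in the selected arrays, NAP57, a nucleolar pseudouridine synthase gene, differed by -1.35, and NOP56, a partner of fibrillarin, by -1.15. RACK1B and RACK1C, scaffold proteins of the small ribosomal subunit, differed by -1.59 and -1.61. The plastid chaperonin genes CPN60A and CPN60B differed by -1.16 and -1.14, with Tsu-1 wet 7 and 9 at 9.43 and 9.45 for CPN60A, against 10.62 to 11.51 in the other Tsu-1 wet arrays. PCB2 and PORB, both of chlorophyll synthesis, differed by -1.51 and -1.13. None of these loci fell with the marker score in the other 12 arrays.

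Besides ARR7, the cytokinin response regulator genes ARR4 and ARR15 differed by -1.46 and -1.19. Beside NIR1, the nitrate reductase gene NIA2 differed by -1.01 and the nitrate-responsive regulator LBD37 by -1.40. On the high side, 3 genes of the NF-YA transcription factor family had selected arrays above all others within each group, as did 14.5% of all tested loci. NF-YA2 differed by 1.28, NF-YA3 by 1.08 and NF-YA10 by 1.03, and none of them rose with the marker score (slopes -0.13, -0.20 and -0.03). The immune signalling genes PEPR1, a receptor of damage peptides (1.65), RBOHD, an oxidase that makes apoplastic reactive oxygen (1.40), and MEKK1, a kinase of the defence cascade (1.06), rose with the score in the 12 arrays by 0.56, 0.27 and 0.24 (limma adjusted p = 0.00632, 0.0449 and 0.00751). Across 12186 loci with a gene length, difference and length had a Spearman correlation of 0.136, and the median length was 2280 bases for loci at least 2-fold higher and 1847 for those lower, against 2471 for all.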
